A study of Homo sapiens with 6 samples.

Results

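The 10 genes described here encode the isoenzymes of the first steps of glycolysis: the hexokinases HK1, HK2 and HKDC1, the isomerase GPI, the phosphofructokinases PFKL, PFKM and PFKP, and the bifunctional enzymes PFKFB2, PFKFB3 and PFKFB4. They were taken by gene name from a table of 58735 genes, and all 10 had a row. RNA was sequenced from HEK293, a human embryonic kidney cell line, in 2 groups of 3 libraries. Cells of one group stably expressed tensin 2 Y483E, in which a tyrosine is replaced by glutamate to resemble its phosphorylated state, and cells of the other stably expressed tensin 2 Y483F, in which the same tyrosine is replaced by phenylalanine and cannot be phosphorylated. Tensin 2 is a protein of focal adhesions. The series title names an interaction of it with GAPDH and a role in glycolysis, so the comparison of the lines asks whether glycolytic transcripts differ between these forms. The design text names 2 different lines and gives no number of clones, so line and mutation cannot be told apart where a form is 1 line. The labels call the replicates biological without mention of separate cultures. The p-values then reflect only how these samples vary, which may be technical variation. No line without a tensin 2 transgene was analysed here.

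Hexokinases phosphorylate glucose and so trap it in the cell, and GPI turns the product, glucose 6-phosphate, into fructose 6-phosphate. Phosphofructokinase-1, a tetramer built from the liver (PFKL), muscle (PFKM) and platelet (PFKP) subunits, then commits the sugar to glycolysis. The PFKFB enzymes make and break fructose 2,6-bisphosphate, the strongest known activator of phosphofructokinase-1, and each isoenzyme has its own balance of the opposing activities.

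The reads summed to between 17204498 and 23284592 per library. Of 8 HEK293 markers, 5 had a mean of at least 1 FPKM (fragments per length of the gene and depth of the library), among them LIN28B, VIM, NEFL and CDH2, and PAX2, EYA1 and NEFM did not. The summed level of the 8 markers was 152 to 174 FPKM in Y483E and 147 to 149 FPKM in Y483F. None of the 16 markers of blood, fibroblasts, endothelium, squamous epithelium, skeletal muscle and liver reached a mean of 1 FPKM, and PTPRC, CD3E, COL1A2, KRT14 and MYH1 had no read. In a bulk sample, fewer cells that express a gene and less RNA per cell cannot be told apart.

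Promoter windows from RefSeq (GRCh38.p14), 250 bases before to 50 after a transcript start, were found for 9 of the 10 members, 26 windows in all, and not for PFKFB2. The windows were searched on both strands for ACGTG, for CACGTG, the E-box, and for GGGCGG, the GC box. ACGTG is a form of the core of the hypoxia-response element and is called the core here. Other forms were not searched. CACGTG reads the same on both strands and holds ACGTG on each of them. Of the 26 windows, 7 held the core (26.9%), 2 the E-box (7.69%) and 15 the GC box (57.7%). Of all 35116 windows of the same length, 21.4% held the core, 7.26% the E-box and 45% the GC box. Some windows of the same gene overlap, so a single site can be counted in several windows, and the shares are descriptions. By member, 5 of the 9 held the core in some window, 2 the E-box and 7 the GC box. The share of all genes with each motif was not worked out. Windows of 4 members are shown, chosen after the values were seen: the 2 that hold an E-box belong to HK2 and PFKFB3, the pair of members whose levels varied most alike over the libraries, GPI was the most abundant member, and HKDC1 was almost unread. Capitals mark the core or the E-box on either strand. The windows lie on the plus strand at chr2:74834920-74835219 (HK2), chr10:6202682-6202981 (PFKFB3), chr19:34364742-34365041 (GPI) and chr10:69220082-69220381 (HKDC1).

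HK2: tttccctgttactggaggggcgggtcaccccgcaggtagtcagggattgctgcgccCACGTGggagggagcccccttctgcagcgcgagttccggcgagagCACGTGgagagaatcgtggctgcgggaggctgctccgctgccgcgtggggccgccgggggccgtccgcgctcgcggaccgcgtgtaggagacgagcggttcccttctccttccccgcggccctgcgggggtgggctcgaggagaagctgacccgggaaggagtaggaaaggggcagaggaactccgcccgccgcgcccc

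PFKFB3: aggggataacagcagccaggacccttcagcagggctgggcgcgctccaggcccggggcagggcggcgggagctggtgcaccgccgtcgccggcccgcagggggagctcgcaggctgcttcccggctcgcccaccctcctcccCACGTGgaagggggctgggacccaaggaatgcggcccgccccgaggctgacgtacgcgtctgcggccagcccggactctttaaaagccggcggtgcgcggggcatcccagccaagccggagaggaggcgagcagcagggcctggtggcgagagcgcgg

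GPI: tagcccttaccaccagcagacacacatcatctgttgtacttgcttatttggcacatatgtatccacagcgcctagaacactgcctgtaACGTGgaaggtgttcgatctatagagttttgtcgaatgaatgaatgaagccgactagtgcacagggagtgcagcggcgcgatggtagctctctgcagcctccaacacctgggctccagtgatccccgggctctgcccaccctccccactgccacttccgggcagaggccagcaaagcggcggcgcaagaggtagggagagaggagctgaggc

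HKDC1: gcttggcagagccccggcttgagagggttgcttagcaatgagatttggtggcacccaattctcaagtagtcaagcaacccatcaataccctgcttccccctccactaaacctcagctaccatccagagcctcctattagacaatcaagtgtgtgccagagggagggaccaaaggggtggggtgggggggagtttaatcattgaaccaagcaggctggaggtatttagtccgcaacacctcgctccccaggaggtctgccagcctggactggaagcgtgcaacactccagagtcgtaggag

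The HK2 window held 2 E-boxes and the PFKFB3 window 1. The GPI window held 1 core outside an E-box, and the HKDC1 window held none of the 3 motifs in the letters searched. A match describes letters in a window and shows no binding. Whether the E-boxes bear on the like variation of HK2 and PFKFB3 was not tested. The share of member windows with an E-box was near that of all windows.

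GPI had the highest level of the 10 members and HKDC1 the lowest, and the same order was found in 6 of 6 libraries: GPI, PFKP, PFKL, HK1, HK2, PFKM, PFKFB3, PFKFB2, PFKFB4, HKDC1. The ranges of neighbours over the 6 libraries overlapped for 1 pair, HK2 and PFKM, whose ratio lay between 1.05 and 1.19. The widest steps lay between PFKFB3 and PFKFB2, with a ratio of 6.23 to 8.56, and between PFKFB4 and HKDC1. These are levels per length, and the order of PFKP and PFKL and that of HK2 and PFKM depend on the length, as given with the shares. The plot of levels by library shows the order and the spread.

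**Figure D1:**
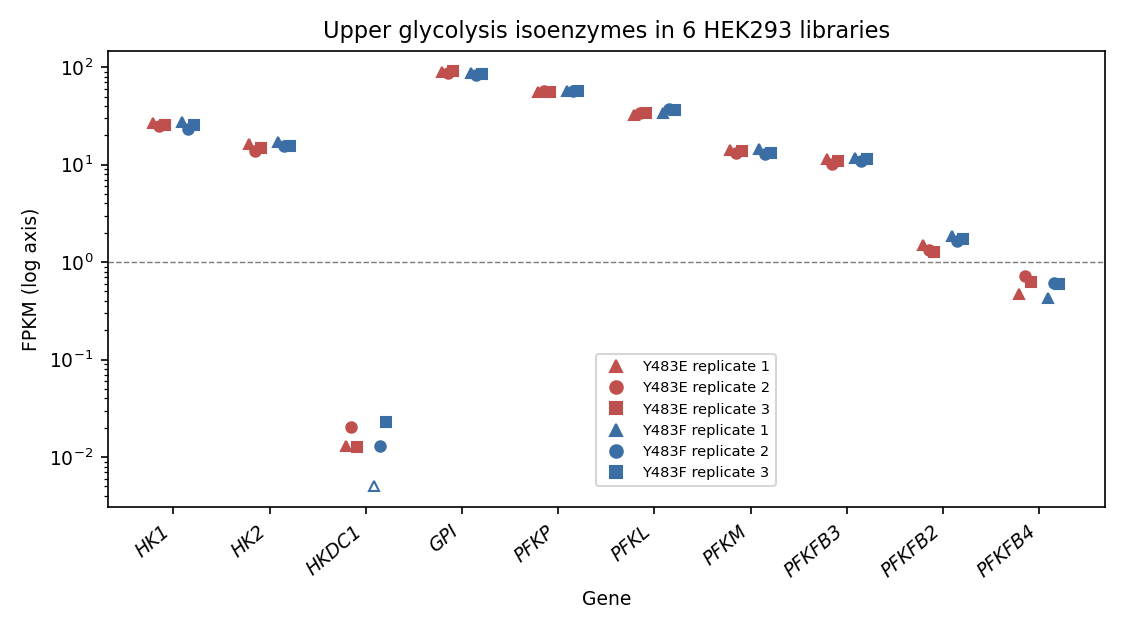
FPKM of the 10 members on a log axis, 1 point per library, coloured by line and shaped by replicate. The dashed line marks a mean of 1 FPKM, the filter of the test. The open triangle is Y483F replicate 1 of HKDC1, which was at 0 and is drawn at the foot of the axis. The points of 7 members lie above 10 FPKM, and those of HKDC1 lie below 0.03 FPKM.

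HK1, the hexokinase of most tissues, was read at 26.6, 25.2 and 25.3 FPKM in Y483E replicates 1, 2 and 3, and at 27.7, 23.2 and 25.3 FPKM in Y483F. Both the highest and the lowest library belonged to Y483F. The log2 fold change, Y483E over Y483F on the log2(FPKM + 1) scale as in all values below, was 0.02 ± 0.07 (SE), with a 95% interval from -0.14 to 0.17 and an adjusted p of 0.931 by limma. HK2, the insulin- and hypoxia-responsive hexokinase of muscle and many tumours, was read at 16.2, 13.8 and 14.8 FPKM in Y483E against 17.2, 15.4 and 15.4 FPKM in Y483F. The groups overlapped through Y483E replicate 1. Its log2 fold change was -0.09 ± 0.07 (SE; 95% interval -0.26 to 0.07; limma adjusted p = 0.621).

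HKDC1, a hexokinase-like enzyme, gave 1, 2 and 1 reads in Y483E and 0, 1 and 2 reads in Y483F. Every library lay under the floor of 3 reads that a count of 0 allows, so no fold is given. HK3, a hexokinase outside the list, was as scarce, with at most 1 read per library.

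GPI was read at 89.2, 87.9 and 90.3 FPKM in Y483E against 87.7, 82.6 and 84.7 FPKM in Y483F. The lowest Y483E library lay just above the highest Y483F library, so the groups did not overlap. With TPM scaling, in which every library is brought to the same sum of FPKM, they did overlap (exact two-sided permutation p = 0.2). The difference was small: 4.88% of the Y483F mean, a log2 fold change of 0.07 ± 0.04 (SE; 95% interval -0.03 to 0.16; limma adjusted p = 0.523).

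PFKP was read at 55.9, 56.8 and 55.6 FPKM in Y483E against 56.7, 56.5 and 56.5 FPKM in Y483F. The difference was a log2 fold change of -0.01 ± 0.03 (SE; 95% interval -0.09 to 0.07; limma adjusted p = 0.914), the narrowest interval of the 8 members tested. The coefficient of variation of PFKP over the 6 libraries, 0.834%, was lower than that of all but 2 of 12833 genes, whose median was 7.6%. This was noticed after the values were seen. Counting error alone, taken as Poisson for its 4693 to 6404 reads per library, would give 1.39%. The spread of PFKP was thus smaller than counting error, so it is no measure of how constant the transcript was. The other 7 tested members varied by 3.33% (GPI) to 14.8% (PFKFB2), above their own counting error of 0.753% and 5.8%.

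PFKL was read at 32.4, 34.3 and 33.7 FPKM in Y483E against 33.8, 37.2 and 36.2 FPKM in Y483F. The groups overlapped because Y483F replicate 1 lay below Y483E replicate 2. The difference was a log2 fold change of -0.09 ± 0.05 (SE; 95% interval -0.21 to 0.02; limma adjusted p = 0.482). PFKL lies on chromosome 21, where 122 of 139 tested genes (87.8%) had a lower mean in Y483E, with a median log2 fold change of -0.14 that was larger in size than that of PFKL. The part of the chromosome in the value of PFKL was not tested. On the chromosomes of the other members (1, 2, 3, 10, 12 and 19) the share of lower genes was 40.2% to 50.4%.

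PFKM was read at 14.1, 13.1 and 13.7 FPKM in Y483E against 14.5, 13.0 and 13.3 FPKM in Y483F, with full overlap. Its log2 fold change was 0.01 ± 0.05 (SE; 95% interval -0.12 to 0.14; limma adjusted p = 0.976), a sign that turned in 6 of 19 other settings. Some of those settings return the main estimate by design. PFKM shares 628 exon bases, 8.58% of its exons, with SENP1 on the opposite strand, and whether the counting used strand is not known. SENP1 was read at 8.46 ± 0.08 FPKM in Y483E and 7.93 ± 0.13 FPKM in Y483F (SD, n = 3 each).

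PFKFB3, the isoenzyme with the highest kinase relative to phosphatase activity, was read at 11.5, 10.2 and 10.8 FPKM in Y483E against 11.6, 11.0 and 11.4 FPKM in Y483F. The groups overlapped, and the log2 fold change was -0.06 ± 0.05 (SE; 95% interval -0.18 to 0.07; limma adjusted p = 0.695). PFKFB4 was read at 0.467, 0.716 and 0.622 FPKM in Y483E against 0.43, 0.61 and 0.604 FPKM in Y483F, from 45 to 102 reads, and failed the filter of the test. Replicate 1 was the lowest library of PFKFB4 in both lines. On the reads, edgeR gave a log2 fold change of 0.13 ± 0.21 (SE; adjusted p = 0.84). PFKFB1, outside the list, had 2 to 7 reads per library.

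PFKFB2, known from heart as an isoenzyme activated by insulin signalling, had the largest difference of the tested members. It was read at 1.49, 1.34 and 1.27 FPKM in Y483E (272, 318 and 238 reads) and at 1.86, 1.64 and 1.73 FPKM in Y483F (325, 301 and 359 reads). All 3 Y483E libraries lay below all 3 Y483F libraries, and the mean was 0.783 times that of Y483F. The difference was a log2 fold change of -0.21 ± 0.08 (SE; 95% interval -0.40 to -0.03; limma adjusted p = 0.358). At this level the pseudocount of 1 shrinks the fold: on the reads, edgeR gave -0.36 ± 0.10 (SE; adjusted p = 0.189). The authors' deposited table lists PFKFB2 with a log2 fold change of -0.35 and an adjusted p of 0.188, and no other member is in that table. It holds 1652 genes, as many as had an unadjusted p under 0.05 by DESeq2 on the reads. DESeq2 on the reads gave PFKFB2 the same fold and adjusted p, so the listing is no separate test. PFKFB2 shares 315 exon bases, 3.09% of its exons, with YOD1 on the opposite strand, and YOD1 was read at 6.43 ± 0.71 FPKM in Y483E and 6.59 ± 0.18 FPKM in Y483F (SD, n = 3 each).

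**Figure D2:**
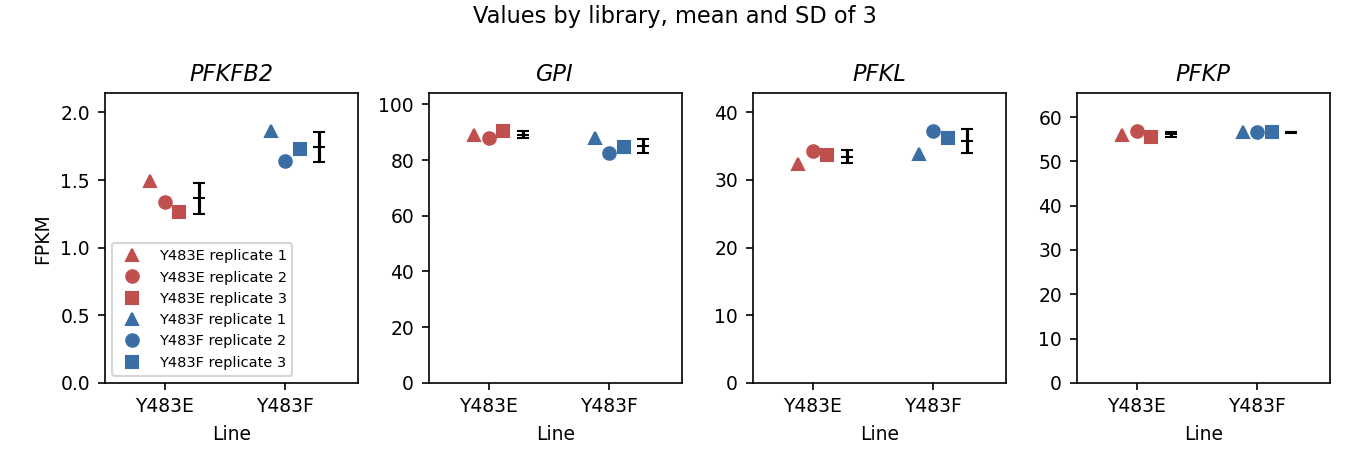
FPKM of PFKFB2, GPI, PFKL and PFKP by library (points, shaped by replicate), with the mean and SD of 3 libraries beside them; each axis starts at 0. The genes were chosen after their values were seen. The groups of PFKFB2 and GPI do not overlap in these deposited FPKM (those of GPI did with TPM scaling), those of PFKL overlap through Y483F replicate 1, and the points of PFKP lie between 55.6 and 56.8 FPKM.

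Of the 10 members, 8 passed the filter at a mean of 1 FPKM, and PFKFB4 and HKDC1 did not. None of the 8 was called by limma at an adjusted p of 0.05, where 0 of 12833 genes (0%) were called. At an unadjusted p under 0.05, 1 of the 8, PFKFB2, passed, beside 12.2% of all tested genes. By edgeR on the reads, 0 of 9 members were called, beside 0.0438% of 15992 genes, and 1 of 9 had an unadjusted p under 0.05, beside 13.4%. DESeq2 called none of the members and 0.946% of all genes. Over the 8 members, 3 log2 fold changes were above 0 and 5 below, with a median of -0.03, and the median of all 12833 genes was 0.01. The groups did not overlap for 2 of the 8 members, GPI higher and PFKFB2 lower in Y483E, and for 17.1% of all tested genes, 9.72% higher and 7.37% lower. With TPM scaling the count was 1 of the 8, PFKFB2, beside 17.5% of all tested genes. With 8 genes, both counts are near the background.

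**Figure D3:**
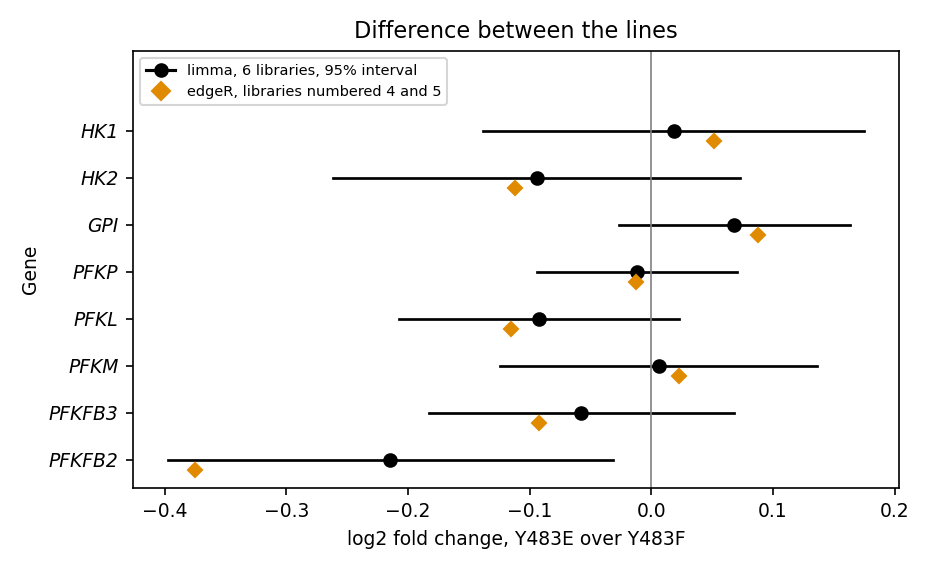
Log2 fold change, Y483E over Y483F, of the 8 members that passed the filter. Black points and lines are limma estimates on log2(FPKM + 1) with 95% intervals over 6 libraries, and orange diamonds are edgeR estimates on reads in the 4 libraries numbered 4 and 5. The interval of PFKFB2 alone lies wholly below 0, and its p did not pass the adjustment over all genes.

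In the labels the libraries of each line carry the numbers 1, 4 and 5, which the titles call replicates 1, 2 and 3, and the labels do not say what the numbers stand for. HK1, HK2, PFKM, PFKFB3 and PFKFB2, 5 of the 8 tested members, were highest in replicate 1 in both lines, as were 22.6% of all tested genes. In the libraries numbered 4 and 5 alone, edgeR called 15% of 16308 genes, 7.07% higher and 7.98% lower in Y483E. It called 2 of 9 members, both lower in Y483E: PFKFB2 fell by 0.38 on the log2 scale (adjusted p = 0.0244) and PFKL by 0.12 (adjusted p = 0.0466). PFKL lies on chromosome 21, where most tested genes had a lower mean in Y483E over the 6 libraries, as given above. In the same libraries limma called 5.71% of genes and no member. With a term for number 1 against 4 and 5, edgeR called 1.02% of genes and no member, PFKFB2 having an adjusted p of 0.0638. The fold of PFKFB2 did not depend detectably on the number: the interaction was 0.05 ± 0.18 (SE; edgeR adjusted p = 0.927), with 1 library of each line numbered 1 and assumed to vary like the others. No member had a called interaction, against 0.0623% of genes by limma and 2.01% by edgeR.

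Within the families, HK1 and HK2 made up nearly all hexokinase FPKM, PFKP the largest part of phosphofructokinase-1 and PFKFB3 most of PFKFB. HK1 took 63.2% ± 1.3 of hexokinase FPKM in Y483E and 61.2% ± 1.17 in Y483F (SD, n = 3 each, as for all shares). HK2 took 36.7% ± 1.27 and 38.6% ± 1.02, and its groups did not overlap: the highest Y483E library stood at 37.77% (replicate 1) and the lowest Y483F library at 37.77% (replicate 3), apart only in the third decimal.

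PFKP took 54.4% ± 0.332 of phosphofructokinase-1 FPKM in Y483E and 53.4% ± 0.505 in Y483F, PFKL 32.4% ± 0.69 and 33.7% ± 1.36, and PFKM 13.2% ± 0.61 and 12.9% ± 0.86. PFKFB3 took 83.6% ± 1.02 and 82.5% ± 0.305 of PFKFB FPKM. PFKFB2 took 10.5% ± 0.623 in Y483E and 12.7% ± 0.496 in Y483F, and PFKFB4 4.67% ± 1.17 and 4.0% ± 0.82. In deposited FPKM the groups did not overlap for the shares of HK2, PFKP and PFKFB2. Each of these had an exact two-sided permutation p of 0.1, the smallest that 3 libraries against 3 can give, and 0.4 after Benjamini-Hochberg adjustment over the 12 shares of the 3 families. TPM scaling cannot change a share within a library, so it is no check of the shares. The groups of PFKFB2 stayed apart with the length of each gene's principal transcript and by reads with no division by length. Those of PFKP overlapped by principal transcript length and by reads (exact permutation p = 0.2 for each), and those of HK2 by reads (exact permutation p = 0.2). The ratio of PFKFB3 to PFKFB2 was 7.97 ± 0.51 in Y483E and 6.5 ± 0.24 in Y483F, without overlap (SD, n = 3 each; exact permutation p = 0.1, adjusted 0.48 over 6 ratios).

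**Figure D4:**
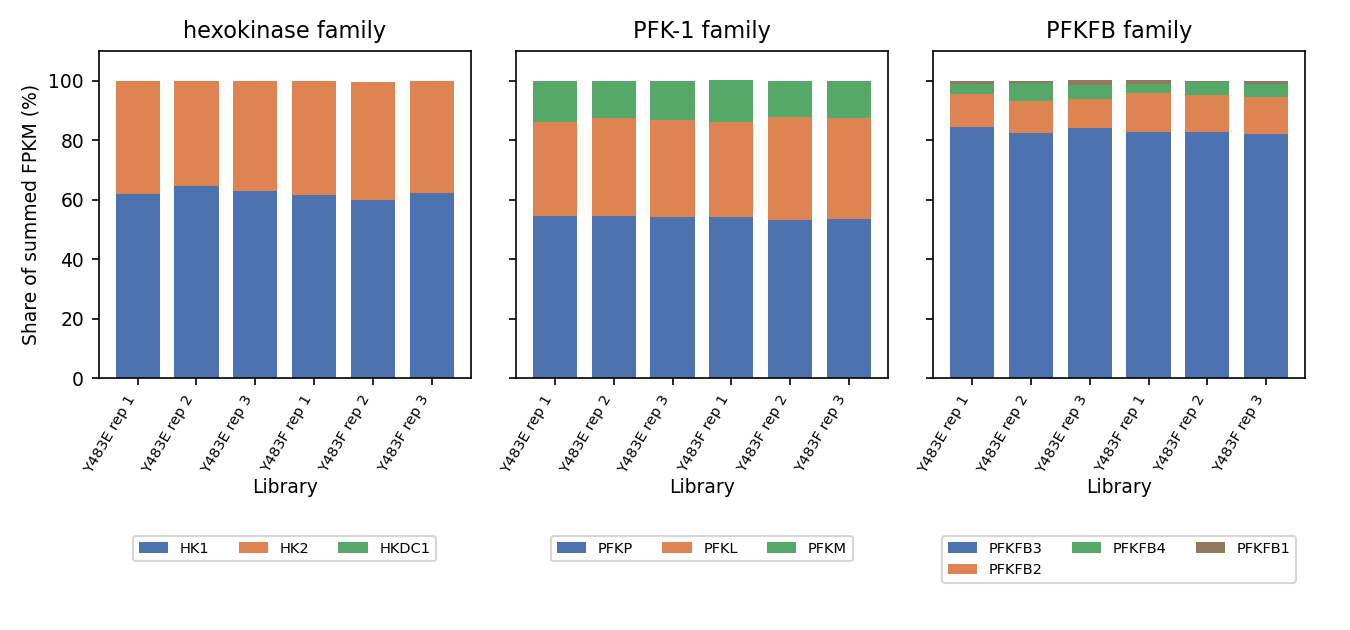
Share of the isoenzymes in the summed FPKM of their family, in percent, for each of the 6 libraries; in the hexokinase family the 3 members are drawn. HK1 lies between 59.9% and 64.6%, PFKP between 53.0% and 54.6%, and PFKFB3 between 82.1% and 84.4%.

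The summed FPKM of phosphofructokinase-1 was 103 ± 0.883 in Y483E and 106 ± 0.875 in Y483F (SD, n = 3 each). These groups did not overlap, a difference of -2.57% of the Y483F mean (exact two-sided permutation p = 0.1). With TPM scaling they overlapped, and the log2 difference moved from -0.04 to -0.0053 (exact permutation p = 0.7). Of the subunits, PFKL differed most in FPKM, with means of 33.5 in Y483E and 35.8 in Y483F. It lies on chromosome 21, where most tested genes had a lower mean in Y483E, as given above. The hexokinase sum was 40.7 ± 1.98 and 41.5 ± 3.17 FPKM (exact permutation p = 0.7), and the PFKFB sum 13.0 ± 0.591 and 13.7 ± 0.388 FPKM (exact permutation p = 0.2), both with overlap. The hexokinase difference changed sign with TPM scaling.

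The order of the mean levels of PFKP and PFKL turned with the gene length. The length in the table was the summed length of all annotated exons in GENCODE 29 for each member, 8926 bases for PFKL and 4836 for PFKP. The principal transcript is 2912 bases long for PFKL, shorter by a factor of 3.07, and 2654 for PFKP, shorter by 1.82. With that length, an alternative added after the values were seen, PFKL took a mean of 44.2% and PFKP 42.8%, against 33.1% and 53.9% by the length in the table. PFKL lay above PFKP in 5 of 6 libraries by that length. The ranges of the FPKM recomputed with it overlapped, 99.3 to 114 for PFKL and 101.3 to 103.5 for PFKP. Of the reads with no division by length, PFKL had 45.3% and PFKP 40.01%. For the hexokinases the principal transcript length gave HK1 73.2% and HK2 26.7%, in the same order as by the table. HK2 and PFKM also changed places: by that length PFKM had a mean recomputed FPKM of 31.0 and HK2 of 16.3, with PFKM above HK2 in 6 of 6 libraries. No other neighbours in the order of the 10 members changed places. The ratio of the FPKM of 1 gene between libraries does not depend on its length. The filter at 1 FPKM and the pseudocount of 1 act on a level per length, so the limma fold can shift with the length.

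**Figure D5:**
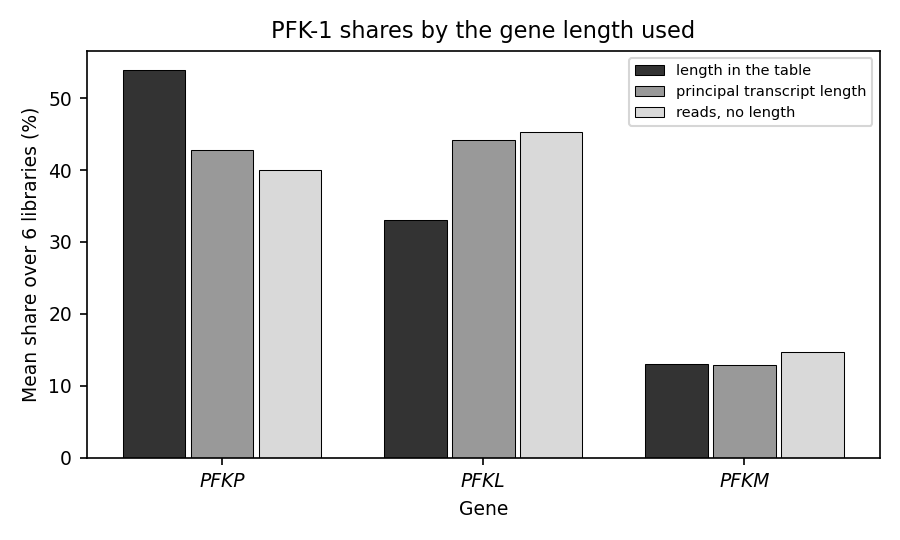
Mean share over 6 libraries of PFKP, PFKL and PFKM, in percent, by the length in the table, by the principal transcript length and by reads with no length; bars start at 0 and no error is drawn. PFKP is highest by the length in the table and PFKL by the other 2.

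Among 28 pairs of the 8 tested members over 6 libraries, the log2(FPKM + 1) values of HK2 and PFKFB3 had the highest Pearson correlation, 0.935, followed by HK1 and PFKM at 0.901. GPI and PFKL had the lowest, -0.926: the libraries with most GPI had least PFKL. The libraries share the line and the number, so these are descriptions. For the most abundant member of each family, the genes with the most like profile among 7022 genes over the 6 libraries were PPP6R3 (0.997), WAPL (0.992) and NARS2 (0.992) for HK1, VPS37C (0.968), E2F3 (0.96) and SLC41A1 (0.935) for PFKP, and EAF1 (0.992), COPS5 (0.981) and SEC23IP (0.98) for PFKFB3. The values of PFKP spanned 0.03 on the log2 scale, so its profile is mostly counting error.

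The neighbouring steps of the pathway showed no called gene by limma or by edgeR in 6 libraries. Of all tested genes, limma called 0% and edgeR 0.0438%. Calls named below in the libraries numbered 4 and 5 stand beside 15% of 16308 genes that edgeR called there. Of the genes that let glucose in, 4 of 11 were tested by limma, 1 higher and 3 lower in Y483E, with a median log2 fold change of -0.01, beside 0.01 for all genes. SLC2A1, the glucose transporter GLUT1, was read at 25.2 ± 1.23 and 24.9 ± 2.16 FPKM, and SLC2A8 at 5.14 ± 0.331 and 5.48 ± 0.361 FPKM, in Y483E and Y483F (SD, n = 3 each, as in the values that follow). SLC2A3, the transporter GLUT3, was read at 0.834 ± 0.17 and 0.592 ± 0.0608 FPKM and was called higher in Y483E by edgeR in the libraries numbered 4 and 5 (log2 fold change 0.71).

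Of 8 enzymes that oppose or bypass these steps, 3 were tested, 1 higher and 2 lower, median -0.02. G6PC3, a glucose 6-phosphatase, was read at 18.8 ± 0.826 and 16.6 ± 1.6 FPKM and called in the libraries numbered 4 and 5 (edgeR 0.29). ADPGK, which phosphorylates glucose with ADP, was read at 13.8 ± 0.942 and 13.9 ± 0.19 FPKM. TIGAR, which breaks down fructose 2,6-bisphosphate as the phosphatase side of the PFKFB enzymes does, was picked after its values were seen. Its level was 1.02, 0.865 and 0.932 FPKM in Y483E and 1.28, 1.25 and 1.2 FPKM in Y483F, without overlap (limma -0.21 ± 0.08 (SE), adjusted p = 0.363).

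Of 12 genes at the exits from the hexose phosphates, all were tested, 7 higher and 5 lower, median 0.02. GYS1, glycogen synthase, was read at 28.5 ± 1.58 and 28.6 ± 0.454 FPKM, and GNPDA1, a glucosamine 6-phosphate deaminase, at 17.8 ± 0.521 and 19.2 ± 1.14 FPKM. PGM1, at 12.2 ± 0.944 and 10.6 ± 0.567 FPKM, and H6PD, at 3.81 ± 0.648 and 3.11 ± 0.0699 FPKM, were called higher by edgeR in the libraries numbered 4 and 5 (0.25 and 0.42).

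Of 15 genes of lower glycolysis, 12 were tested, 6 higher and 6 lower, with a median of -0.00057. ENO1 was read at 817 ± 15 and 780 ± 39.1 FPKM. GAPDH, at 758 ± 21.5 and 715 ± 58.8 FPKM, was called higher by edgeR in the libraries numbered 4 and 5 (0.15), and LDHB, at 21.8 ± 4.63 and 26.04 ± 3.22 FPKM, lower (-0.19). Over 6 libraries limma gave LDHB -0.26, and without Y483E replicate 1 the value was -0.08. Of the 3 mitochondrial channels at which hexokinases dock, 1 was higher and 2 lower, with VDAC1 at 105 ± 4.02 and 110 ± 7.44 FPKM and VDAC2 at 79.6 ± 2.35 and 76.5 ± 4.35 FPKM.

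Of 16 upstream regulators, 14 were tested, 6 higher and 8 lower, median -0.01. MYC, an E-box factor that activates glycolytic genes, was read at 33.5 ± 0.226 and 38.0 ± 2.34 FPKM without overlap (limma -0.18 ± 0.05 (SE), adjusted p = 0.309). In the libraries numbered 4 and 5, the regulators that edgeR called included MYC (-0.13) and AKT2 (-0.12), lower, and SREBF1 (0.20) and PRKAA2 (0.20), higher. AKT2 was read at 30.0 ± 1.74 and 30.9 ± 1.06 FPKM, SREBF1 at 13.0 ± 2.55 and 11.5 ± 1.86 FPKM, and PRKAA2 at 6.70 ± 0.299 and 6.22 ± 0.472 FPKM. The values of AKT2 and SREBF1 moved with single libraries. Over 6 libraries limma gave SREBF1 0.15, from 0.02 without Y483F replicate 1 to 0.32 without Y483E replicate 1. For AKT2 it gave -0.04, from -0.09 without Y483E replicate 1 to -0.01 without Y483E replicate 3.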

How the data were processed

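Poly-T selected RNA of 6 HEK293 libraries was sequenced, 3 from cells with tensin 2 Y483E and 3 with Y483F, and groups were read from the labels. The submitters' processing notes list DESeq and DESeq2, with featureCounts 1.5.0-p3, HISAT2 2.0.5 and StringTie 1.3.3b. The role of each tool and the genome build are not given in the sources used here, and neither is the strandedness. The authors deposited FPKM values with gene lengths for all genes. For 1652 genes a second deposited table gives raw counts, the signal made by dividing the counts by 1 size factor per library, and the authors' log2 fold changes and p-values.

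FPKM times length times a library total worked out from the listed counts gave whole reads, within 0.01, for 100% of values. A match with the listed counts of the 1652 genes is therefore largely built in. Limma 3.58.1 (eBayes with trend, two-sided) was run on log2(FPKM + 1) for the 12833 genes whose mean reached 1 FPKM, and p-values were adjusted by Benjamini-Hochberg over all of them with a threshold of 0.05. On the recovered reads, the alternatives were DESeq2 1.42.0 and the quasi-likelihood test of edgeR 4.0.16 with TMM and filterByExpr. DESeq2 was run with independent filtering at its default target of 0.1, and again for 0.05 after the first count was seen. Sums, shares and ratios were compared by exact permutation over libraries in Python 3.11.15, and the fits were made in R 4.3.3. Floors of 3 reads cover counting error only.

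The members and the gene lists were chosen with earlier results of these data known. The filters of the fits on fewer libraries and of the TPM fit were set to that of all 6 libraries after a first run. Named pathway genes were the 2 with the highest mean FPKM in each list and those called by limma or by edgeR in all libraries or in those numbered 4 and 5; TIGAR was added. Some genes that the rule or the lists take are not reported here. Other settings were a pseudocount of 0.1, no filter, TPM scaling, quantile normalization, the replicate block, a term for the library number, and leaving out each library. The fits were run on simulated data with 200 changed genes, where only the large changes were required to be recovered. This is no check of differences as small as those of the members.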

Additional observations from a re-analysis of the deposited data

Results flagged for a closer look

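G6PC3, a glucose 6-phosphatase next to the hexokinase step, had a line contrast called as different between library numbers by edgeR and not by limma. Its log2 ratio of Y483E to Y483F was -0.05 in the libraries numbered 1 and 0.30 in those numbered 4 and 5. The test of this difference over all genes by edgeR gave -0.347 ± 0.08 (SE; adjusted p = 0.0383), and limma gave -0.327 with an adjusted p of 0.203. The test rests on 1 library per line numbered 1. The share of all genes with a called interaction is given above with the library numbers. No outlier could be looked for in groups of 3 libraries.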

How the results depend on the processing

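No member was called in any setting but 1: edgeR in the libraries numbered 4 and 5 called 2. The number of genes called moved from 0 to 733 (limma, libraries numbered 4 and 5), 7 (edgeR), 169 (edgeR with a term for the number), 2454 (edgeR, libraries numbered 4 and 5), 126 (DESeq2) and 142 (DESeq2 filtering for 0.05, tried after the 126 was seen); the cause was not tested. By limma, which called 0 genes with no library left out, leaving out any 1 library left 0 genes and 0 members called. EdgeR and DESeq2 were not run with a single library left out. Deviations from the group means correlated by 0.0562, 0.139 and -0.0949 between libraries of the same replicate number. Between unlike numbers the correlations lay from -0.263 to 0.206, so they show no clear pairing by number. They cannot exclude an effect that libraries of the same number share. With the replicate block limma called 0 genes and edgeR 6, and neither called a member. Leaving out 1 library, the values that changed sign reached at their other end 0.080 (HK1), 0.050 (PFKM), 0.075 (SLC2A1), -0.061 (ADPGK), -0.048 (GYS1), -0.075 (hexokinase sum) and, for shares, 0.021 (HKDC1) and -0.015 (HK3).

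Over 19 settings each, HK2 kept its sign (-0.15 to -0.04), as did GPI (0.04 to 0.10), PFKL (-0.13 to -0.06), PFKFB2 (-0.38 to -0.18) and PFKFB3 (-0.09 to -0.02). Some settings could not turn a sign. The limma fits with no filter, the replicate block or the number term return the main estimate, and DESeq2 filtering for 0.05 repeats the DESeq2 fold. Without 1 library the value moved by over 1.5 times for HK1, HK2, PFKM, PFKP and PFKFB3, 5 of 8 members, and for 14 other named genes. Signs that turned were all near 0, and their cause was not tested. Without Y483E replicate 1 HK1 was -0.0056, and without Y483F replicate 2 -0.043. PFKM was -0.017, -0.024 and -0.0073 without Y483E replicate 1, Y483F replicate 2 and Y483F replicate 3, and by edgeR -0.0021, with the number term -0.0011 and with the replicate block -0.00063. TPM scaling gave PFKP 0.020, ADPGK 0.014, GYS1 0.026 and the hexokinase sum 0.0034 (log2). SLC2A1 was -0.021 and -0.046 without Y483E replicate 1 and Y483F replicate 2, ADPGK 0.032 without Y483E replicate 3, and GYS1 0.026, 0.0050 and 0.0019 without Y483E replicates 2 and 3 and Y483F replicate 3. The hexokinase sum was 0.0012 and 0.034 without Y483E replicate 2 and Y483F replicate 1. For genes under 10 reads, the difference in share (percentage points) turned to -0.0072 (HKDC1 without Y483F replicate 1) and -0.0035 (HKDC1, libraries numbered 4 and 5) and to 0.0060, 0.0060 and 0.014 (HK3 without Y483E replicate 1, Y483E replicate 2 and Y483F replicate 2).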
